A study of Mus musculus with 12 samples.

Results

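The difference between the erinacine S effect at 48 h and the effect at 16 h, the treatment by time interaction, was measured in cortical neurons cultured from C57BL/6J mouse embryos (E17.5). Erinacine S is a natural product of the lion's mane mushroom, Hericium erinaceus. The interaction of a gene was its mean with erinacine S minus its mean with DMSO at 48 h, less the same difference at 16 h, all on log2(TPM + 1). TPM is transcript abundance per unit of length, with the same sum in every library. A negative interaction therefore means that erinacine S libraries stood lower against DMSO at 48 h than at 16 h. Genes entered where their mean over the 12 libraries was at least 1 TPM, which held for 15623 of the 51912 genes of the table. No measured difference between groups was used to choose them.

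The 12 libraries fall into 4 groups of 3. All came from cortex of this strain with the meninges removed, plated in 15 cm dishes in medium with serum. The medium was changed after 3 h to a serum-free one with B27 supplement, and the compound was added 1 h later. The groups were DMSO 16 h and DMSO 48 h, which received the solvent, and erinacine S 16 h and erinacine S 48 h, which received 1 µg/mL of the compound in culture for the same times. Each time therefore had its own control, and both controls lived in culture for as long as the treated cells. The labels call the 3 samples of a group independent repeats without naming the litter, dish or day, so the p-values measure the spread between these libraries. The label "neuron" was checked against 15 neuronal markers such as Tubb3, Map2 and Snap25. All 15 were measured, and together they reached 5550 to 7359 TPM in each library. These are bulk samples, in which fewer cells of a type and less RNA per cell cannot be told apart.

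Neurons that are depolarised or receive synaptic input switch on immediate early genes. Calcium entry and kinases such as the MAP kinase ERK modify transcription factors that already sit at these promoters, among them CREB, which binds the cAMP response element (CRE). The first products are themselves transcription factors, such as Fos and Jun, the subunits of AP-1, and Npas4. They are followed by effectors that act at synapses and by phosphatases and Sprouty proteins that dampen the kinase signal.

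Promoters of 4 immediate early transcription factors whose levels are given below are shown, to print where the CRE core lies in them. The sequences are the 250 bases before the RefSeq gene start on GRCm38.p6, read 5′ to 3′ on the strand of the gene. Capitals mark the CRE core TGACG and its reverse complement CGTCA, searched on both strands. The windows are chr12:85473640-85473889 (plus strand) for Fos, chr8:84978749-84978998 (minus strand) for Junb, chr15:101266596-101266845 (plus strand) for Nr4a1 and chr19:4989972-4990221 (minus strand) for Npas4.
Fos: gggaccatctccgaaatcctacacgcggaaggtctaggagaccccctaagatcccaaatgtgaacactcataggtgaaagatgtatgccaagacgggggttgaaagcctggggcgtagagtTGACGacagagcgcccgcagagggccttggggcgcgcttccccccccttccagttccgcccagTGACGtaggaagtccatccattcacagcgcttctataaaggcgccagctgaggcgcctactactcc
Junb: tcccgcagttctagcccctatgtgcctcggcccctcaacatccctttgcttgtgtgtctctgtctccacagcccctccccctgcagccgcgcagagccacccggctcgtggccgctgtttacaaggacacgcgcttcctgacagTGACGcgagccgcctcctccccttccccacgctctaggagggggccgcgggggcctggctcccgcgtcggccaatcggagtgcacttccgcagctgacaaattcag
Nr4a1: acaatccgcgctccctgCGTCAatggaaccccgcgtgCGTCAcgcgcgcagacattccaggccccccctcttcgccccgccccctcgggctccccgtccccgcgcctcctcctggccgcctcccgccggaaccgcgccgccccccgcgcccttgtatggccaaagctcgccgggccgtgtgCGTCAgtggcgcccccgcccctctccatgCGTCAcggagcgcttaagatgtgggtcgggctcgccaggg
Npas4: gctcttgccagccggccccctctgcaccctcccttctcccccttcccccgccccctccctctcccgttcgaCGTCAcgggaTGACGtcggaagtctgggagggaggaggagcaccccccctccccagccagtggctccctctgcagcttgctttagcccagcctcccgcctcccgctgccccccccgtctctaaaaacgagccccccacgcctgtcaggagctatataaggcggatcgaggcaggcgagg
Counted from the gene start to the first base of each match, the core lay at -129 and -66 in Fos and at -106 in Junb. Nr4a1 held it at -233, -213, -69 and -40 and Npas4 at -179 and -169. Of the 20 immediate early transcription factors tested, 16 had a promoter in the RefSeq table, and 13 of these (81.2%) held the core. The RefSeq start used for Atf3, which counts among the 13, lay 34706 bases from its start in the TPM table. That of Fosl2, which held no core, lay 671 bases away. The printed promoters all held the core, while those of Jun and Ier5 held none. Nr4a2, with an interaction of -0.16, held 4, and Klf4, with an interaction of 0.22, held 1. Whether the core goes with the size of the interaction was not tested. Among the effectors 8 of 16 promoters (50%) held the core, and among the MAP kinase feedback inhibitors 3 of 10 (30%). The core was in 27.8% of the 10249 promoters matched among all genes tested and in 17.8% of the 32851 promoters of the table. The AP-1 site TGANTCA was in none of the 16 and in 3.65% of the promoters of genes tested. The full palindrome TGACGTCA, which holds the core on both strands, was in 1 of the 16 (Maff), and the CArG box in 1 (Srf). A match describes letters in this window and not binding.

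No gene passed the test of the interaction. Of the 15623 genes, 0 (0%) had an adjusted p under 0.05 in limma, and the smallest adjusted p was 0.720. With the replicate number as a block at 16 h, where it paired the libraries, 1 gene passed (Gm16172, a gene model at the lowest listed value in all DMSO 48 h libraries and in replicate 3 of both 16 h groups; limma). At an unadjusted p under 0.05 there were 432 genes (2.77%), 198 with a positive (1.27%) and 234 with a negative (1.5%) interaction. The median interaction was -0.00052, with quartiles of -0.10 and 0.10, and 50.1% of the genes were below 0. The 95% interval of a gene reached a median of 0.37 log2 units to either side, so smaller differences between the times could not be resolved for a typical gene. An interaction of -1 or below was measured for 42 genes (0.269%) and of 1 or above for 22 (0.141%).

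The 2 effects that make up the interaction come from separate libraries. At 16 h no gene differed between erinacine S and DMSO after adjustment (0%; limma), and 201 had an unadjusted p under 0.05 (1.29%). At 48 h 21 genes did (0.134%), 18 lower (0.115%) and 3 higher (0.0192%), and 1400 had an unadjusted p under 0.05 (8.96%). The count at 48 h depended on single libraries: it was 9 without DMSO 48 h replicate 1 or without replicate 3, 114 without erinacine S 48 h replicate 1, and 12 when only the libraries of 48 h were fitted. The SD of the effect across genes was 0.13 at 16 h and 0.21 at 48 h, and Pearson's r across genes of the effects was 0.20, a description over genes that are not independent of each other. A call at 48 h without a call at 16 h is not a test of the difference; that test is the interaction, which passed for none of the 21. Time in culture changed 5107 genes in DMSO (32.7%) and 4783 in erinacine S (30.6%). All 18 genes that erinacine S lowered at 48 h are described below with their interactions: 8 immediate early transcription factors, the effectors Arc and Vgf, the phosphatases Dusp1 and Dusp5, Crh, Anxa3, Spp1, C1qc, Peg13 and Dtna. Crh reached the 1 TPM minimum only through DMSO 48 h, the group it is compared with here, so its call at 48 h is given as a description. The 3 higher genes were the chemokine receptors Cxcr4 and Ackr3 and the membrane protein gene Tmem150c, whose interaction was 0.35 ± 0.11 (SE).

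One library stood apart. Erinacine S 48 h replicate 1 held 5.12% mitochondrially encoded TPM where the other 11 held 5.94% to 7.70%. Its 18 markers of dividing cells summed to 238 TPM against 475 to 563 in the other 11 libraries. Its 13 markers of radial glia and progenitors summed to 305 TPM against 497 to 934. Several values that rest on this library are given below with and without it. Each library held 15219 to 15789 genes at 1 TPM or more, and the read depth behind the TPM is unknown.

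The immediate early transcription factors had the most negative median of the 3 lists of activity genes. Of 22 listed, 20 reached a mean of 1 TPM (Fosl1 and Egr2 did not), and 19 of the 20 had an interaction below 0, against 50.1% of all genes. Their median was -0.75, against -0.00052 over all genes tested. In 12 of the 20 the unadjusted p was under 0.05 with a negative interaction, against 1.5% of all genes, and in none with a positive one, while none passed after adjustment. Egr4 reached the 1 TPM minimum only through DMSO 48 h, the group where it was high. The other 19 had a median of -0.70, 18 below 0 and 11 at an unadjusted p under 0.05. The median level with erinacine S was 83.9% of DMSO at 16 h and 50.2% at 48 h. The list was chosen with earlier results of these data known, and its effect at 48 h was already seen, so these counts describe the list and are not independent evidence.

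**Figure D1:**
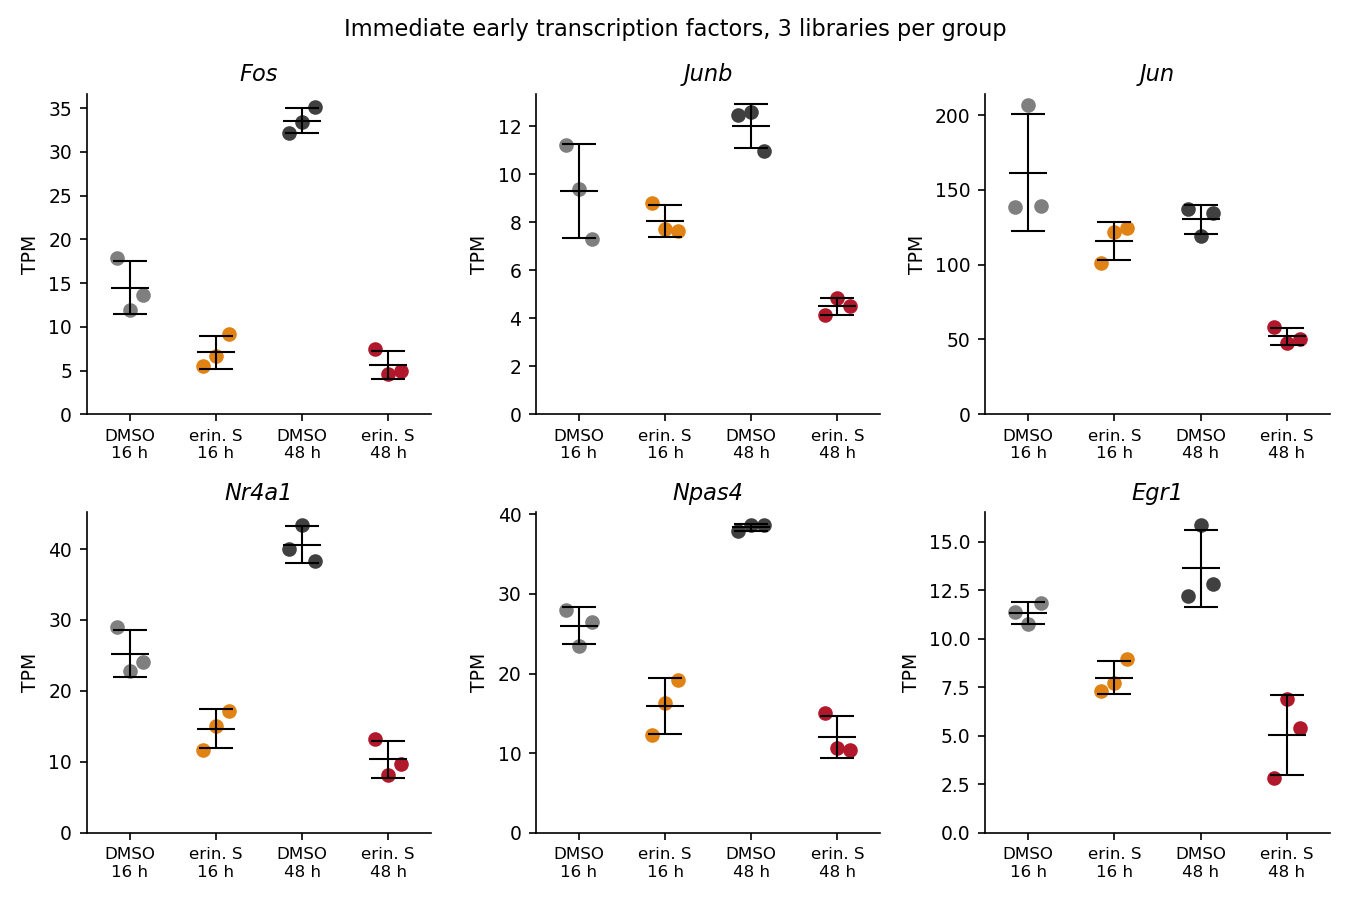
TPM of 6 immediate early transcription factors in each library of the 4 groups (points), with the mean and the SD of 3 libraries (bars). In each panel the erinacine S libraries lie below those of DMSO at 48 h, and for all but Junb they do so at 16 h too, by less.

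Fos (ENSMUSG00000021250, chromosome 12, 85473890 to 85477273), whose promoter is printed above, encodes the AP-1 subunit used most often as a marker of neuronal activity. It was at 17.9, 11.98 and 13.6 TPM in DMSO 16 h, 5.51, 6.62 and 9.16 in erinacine S 16 h, 32.2, 33.4 and 35.1 in DMSO 48 h and 7.48, 4.60 and 4.91 in erinacine S 48 h. The treated libraries lay below their controls at both times, and only the DMSO libraries stood higher at 48 h than at 16 h. Erinacine S libraries held 49.0% of the DMSO level at 16 h and 16.9% at 48 h. The interaction of Fos was -1.46 ± 0.27 (SE, n = 3 libraries a group; limma, unadjusted p = 0.00019, adjusted p = 0.720), with a 95% interval of -2.06 to -0.86.

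Junb (ENSMUSG00000052837, chromosome 8, 84974484 to 84978718) encodes another AP-1 subunit and had the smallest p of all genes. It was at 11.2, 9.38 and 7.32 TPM in DMSO 16 h, 8.82, 7.73 and 7.64 in erinacine S 16 h, 12.5, 12.6 and 11.0 in DMSO 48 h and 4.15, 4.86 and 4.51 in erinacine S 48 h. Treated and control libraries overlapped at 16 h, and at 48 h the treated ones lay below all other 9 libraries. The interaction was -1.07 ± 0.19 (SE; limma, unadjusted p = 0.000113, adjusted p = 0.720). Jun, the partner of Fos, was at 139, 206 and 139 TPM in DMSO 16 h, 101, 122 and 124 in erinacine S 16 h, 138, 119 and 134 in DMSO 48 h and 58.5, 47.6 and 50.5 in erinacine S 48 h. Its DMSO libraries were close at both times, apart from 1 high library at 16 h, and its treated libraries of 48 h were the lowest of the 12. The interaction of Jun was -0.85 ± 0.20 (SE; unadjusted p = 0.0013). Fosb had an interaction of -0.97 ± 0.32 and Fosl2, whose treated libraries were uneven at 25.7, 9.47 and 8.43 TPM at 48 h, one of -0.80 ± 0.45 (SE), which was -1.27 without replicate 1 of that group and -0.52 without replicate 3.

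The nuclear receptor Nr4a1 (ENSMUSG00000023034, chromosome 15, 101266846 to 101274792), which acts without a known ligand, was at 29.0, 22.8 and 24.0 TPM in DMSO 16 h, 11.7, 15.0 and 17.2 in erinacine S 16 h, 40.0, 43.4 and 38.4 in DMSO 48 h and 13.3, 8.20 and 9.64 in erinacine S 48 h. As for Fos, DMSO libraries were higher at 48 h than at 16 h, while the treated libraries of both times overlapped. The interaction was -1.14 ± 0.23 (SE; limma, unadjusted p = 0.000391, adjusted p = 1.00). Its relatives had smaller values. Nr4a3 had an interaction of -0.69 ± 0.23 and Nr4a2 of -0.16 ± 0.32 (SE), with a 95% interval for Nr4a2 of -0.87 to 0.54.

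Npas4 (ENSMUSG00000045903, chromosome 19, 4984355 to 4989971), a factor that responds to calcium entry in neurons, was at 28.0, 23.5 and 26.5 TPM in DMSO 16 h, 12.3, 16.4 and 19.2 in erinacine S 16 h, 37.9, 38.6 and 38.6 in DMSO 48 h and 15.0, 10.7 and 10.4 in erinacine S 48 h. Treated libraries stood at 61.3% of DMSO at 16 h and 31.3% at 48 h, with no overlap at either time. The interaction was -0.92 ± 0.22 (SE; unadjusted p = 0.00127). Egr1, a zinc finger factor, was at 11.4, 10.8 and 11.9 TPM in DMSO 16 h, 7.31, 7.70 and 8.95 in erinacine S 16 h, 12.2, 15.9 and 12.8 in DMSO 48 h and 2.83, 6.89 and 5.41 in erinacine S 48 h. All treated libraries of 48 h were below the other 9, as for 5 of the 20 factors (2.67% of all genes). The interaction of Egr1 was -0.87 ± 0.30 (SE; unadjusted p = 0.013) and moved to -0.57 without erinacine S 48 h replicate 1, its lowest library.

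Atf3, a stress-induced factor also known from injured neurons, showed another shape. It was at 4.48, 3.48 and 3.61 TPM in DMSO 16 h, 4.63, 3.51 and 3.92 in erinacine S 16 h, 2.55, 2.33 and 1.92 in DMSO 48 h and 0.552, 0.707 and 0.971 in erinacine S 48 h. Treated and control libraries overlapped at 16 h, both conditions were lower at 48 h, and there the groups did not overlap. The interaction was -0.96 ± 0.21 (SE; unadjusted p = 0.000588). At 48 h the effect itself passed for 8 of the 20 factors, all lower, against 0.115% of all genes: Fos, Jun, Junb, Nr4a1, Npas4, Egr1, Atf3 and Ier2. The list was chosen with this effect already seen. The other factors with an unadjusted p under 0.05 for the interaction were Egr4 (-1.14), Nr4a3, Ier2 (-0.70), Fosb and Maff (-0.34). Klf4 was the only one of the 20 with a positive interaction, 0.22 ± 0.22 (SE), or 0.40 without DMSO 16 h replicate 1 and 0.085 without replicate 2.

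The shift was present in each treated library. Taking in each library the median over the 20 factors of the log2 distance to the mean of the DMSO libraries at that time, the DMSO libraries lay between -0.10 and 0.06. The erinacine S libraries of 16 h lay at -0.28, -0.27 and -0.19, and those of 48 h at -0.86, -0.91 and -1.02. Against the DMSO library of the same number, replicates 1 to 3 of erinacine S 16 h stood at -0.34, -0.19 and -0.09. Replicate 1 of erinacine S 48 h was thus not the lowest here, and without it the median interaction of the list was -0.80. Over time, 12 of the 20 had a higher mean at 48 h than at 16 h in DMSO and a lower one in erinacine S, which held for 7.76% of all genes. Egr4, which reached the 1 TPM minimum only through DMSO 48 h, is among these 12, so its place there is not independent of the filter. The values that follow keep Egr4 among the 20. The median time difference of the list was 0.32 in DMSO and -0.37 in erinacine S on the log2 scale. At 48 h treated libraries lay below all DMSO libraries for 13 of the 20 (8.74% of all genes), and at 16 h for 6 (1.56%).

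**Figure D2:**
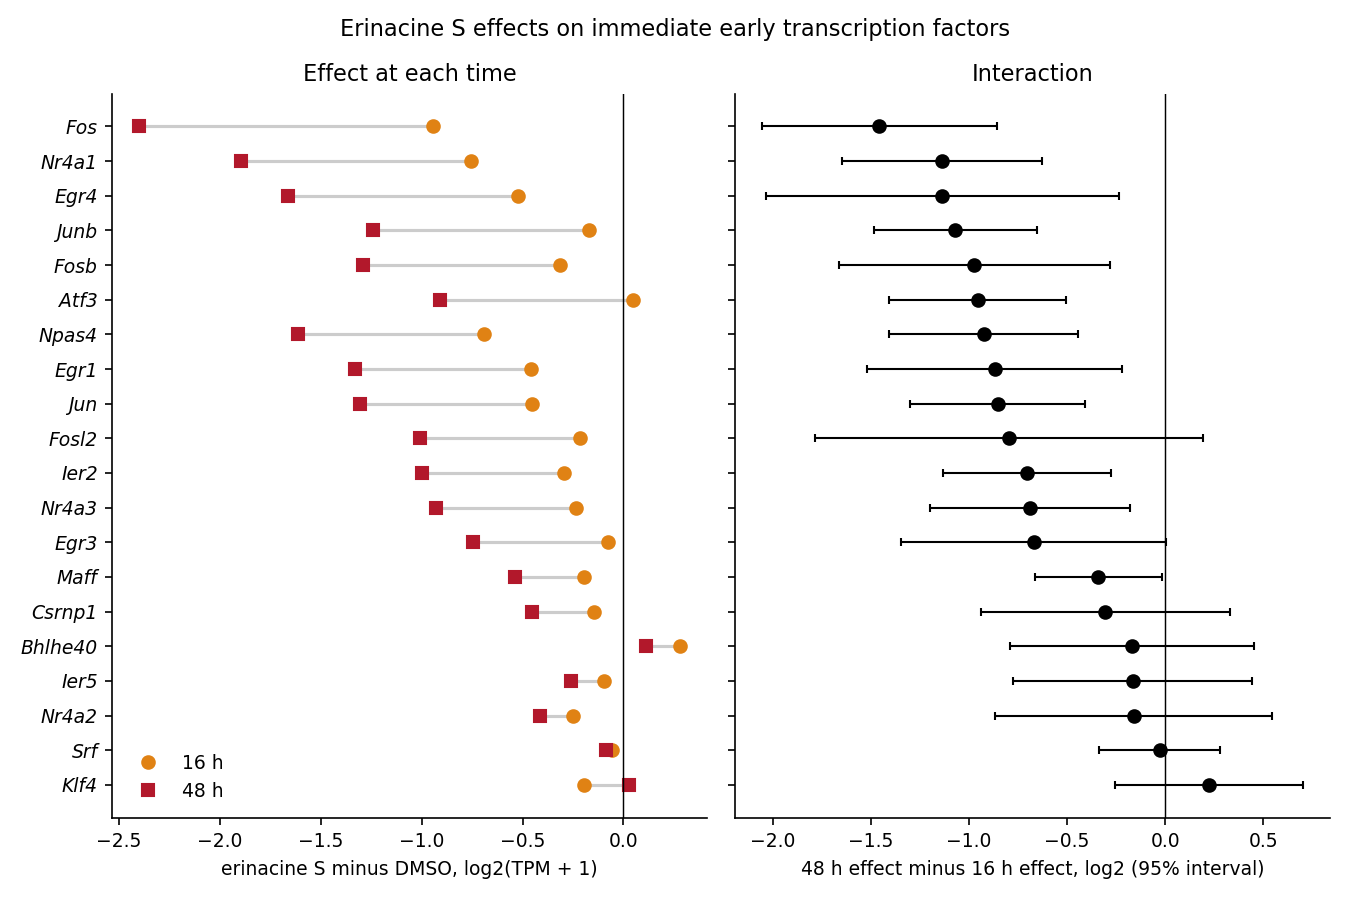
Erinacine S effects on the 20 immediate early transcription factors at 16 h (circles) and 48 h (squares) on the left, and the interaction with its 95% interval on the right, both as log2 differences. The list runs from Fos at -1.46 to Klf4 at 0.22, and the intervals of 12 factors lie wholly below 0 before adjustment.

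The effectors that follow these factors had smaller interactions. All 24 listed were tested, and 20 were below 0 (50.1% of all genes) with a median of -0.19. An unadjusted p under 0.05 was found for 5, all negative (1.5% of all genes): Arc, Rasl11a, Vgf, Bdnf and Trib1. Arc (ENSMUSG00000022602, chromosome 15, 74669083 to 74672570), whose protein promotes the removal of AMPA receptors from synapses, was at 2.86, 2.84 and 2.90 TPM in DMSO 16 h, 1.62, 2.102 and 2.18 in erinacine S 16 h, 3.89, 4.91 and 3.84 in DMSO 48 h and 1.01, 1.47 and 1.51 in erinacine S 48 h. Groups did not overlap at either time, and the level with erinacine S was 68.6% of DMSO at 16 h and 31.6% at 48 h. The interaction of Arc was -0.77 ± 0.20 (SE; limma, unadjusted p = 0.00191, adjusted p = 1.00).

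Bdnf encodes a neurotrophin released by active neurons. It was at 4.35, 2.29 and 2.84 TPM in DMSO 16 h, 2.39, 2.07 and 2.61 in erinacine S 16 h, 3.96, 4.34 and 5.86 in DMSO 48 h and 2.54, 1.44 and 1.43 in erinacine S 48 h. Its groups overlapped at 16 h and not at 48 h, and the interaction was -0.76 ± 0.29 (SE; unadjusted p = 0.0242). Vgf, a secreted protein of the granin family, had an interaction of -0.53 ± 0.20 (SE; unadjusted p = 0.0218). Homer1, a scaffold of the postsynaptic density, had one of -0.05 ± 0.09 (SE), with a 95% interval of -0.26 to 0.15. The table gives a gene total and does not separate the short activity-induced form of Homer1.

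The feedback inhibitors of MAP kinase signalling had a median interaction of -0.34 over all 12 listed, with 11 below 0 (50.1% of all genes). Of the 12, 5 had an unadjusted p under 0.05, all negative (1.5% of all genes). Dusp5, a nuclear phosphatase of ERK, was at 4.89, 4.21 and 3.64 TPM in DMSO 16 h, 4.23, 3.41 and 3.77 in erinacine S 16 h, 4.57, 4.63 and 5.36 in DMSO 48 h and 2.57, 2.30 and 1.92 in erinacine S 48 h. Only at 48 h did its groups stand apart, and its interaction was -0.72 ± 0.19 (SE; unadjusted p = 0.00221). The interactions of the phosphatases Dusp10, Dusp4 and Dusp1 were -0.50, -0.46 and -0.31, and that of the Sprouty gene Spry2 was -0.41. Dusp4 was at -0.30 without DMSO 16 h replicate 3, and Spry2 at -0.27 without erinacine S 48 h replicate 1. Without erinacine S 48 h replicate 1 the median of these 12 genes was -0.23, with 12 below 0.

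Among neuropeptides, 17 of 22 listed were tested, and their median interaction was -0.04 with 10 below 0 (50.1% of all genes). Without replicate 1 of erinacine S 48 h it was -0.29 with 13 below 0, and without replicate 2 it was 0.096. Crh (ENSMUSG00000049796, chromosome 3, 19693401 to 19695396) encodes corticotropin-releasing hormone. It was at 0.673, 0.921 and 1.09 TPM in DMSO 16 h, at 0.566 and 0.624 in 2 libraries of erinacine S 16 h and at the lowest value the table lists, 0.0001, in replicate 1, at 2.95, 4.11 and 4.65 in DMSO 48 h and at 0.408, 0.0478 and 0.0757 in erinacine S 48 h. DMSO libraries were higher at 48 h and the treated ones were not. Crh reached the 1 TPM minimum only through DMSO 48 h, with a mean of 0.489 TPM over the other 9 libraries, so its interaction of -1.59 ± 0.31 (SE) is given as a description. Adcyap1, the precursor of PACAP, had an interaction of -0.87 ± 0.30 (SE; unadjusted p = 0.0144), and Scg2, secretogranin II, of -0.77 ± 0.43 (unadjusted p = 0.1003), or -0.44 without erinacine S 16 h replicate 3.

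The positive interactions were led by Cxcr4 (ENSMUSG00000045382, chromosome 1, 128588199 to 128592293), a chemokine receptor that guides migrating interneurons and other cells toward Cxcl12. It was at 25.7, 30.7 and 28.9 TPM in DMSO 16 h, 32.5, 33.1 and 31.4 in erinacine S 16 h, 17.2, 16.3 and 17.9 in DMSO 48 h and 29.9, 28.2 and 27.4 in erinacine S 48 h. DMSO libraries were lower at 48 h than at 16 h, and the treated ones less so, at 114% of DMSO at 16 h and 166% at 48 h. The interaction was 0.52 ± 0.11 (SE; limma, unadjusted p = 0.000499, adjusted p = 1.00), the smallest p among genes with a positive interaction. Ackr3, a receptor that takes up and clears the same chemokine, was at 20.5, 24.5 and 22.5 TPM in DMSO 16 h, 28.2, 24.9 and 24.1 in erinacine S 16 h, 12.7, 12.2 and 11.2 in DMSO 48 h and 20.7, 17.2 and 18.2 in erinacine S 48 h. It followed the same shape, with an interaction of 0.41 ± 0.14 (SE; unadjusted p = 0.0128). The ligand gene Cxcl12 did not, at -0.13 ± 0.16 (SE), with a 95% interval of -0.49 to 0.22 and values of -0.25 without erinacine S 16 h replicate 1 and -0.040 without replicate 3.

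Other named genes with positive interactions had treated and control libraries close together at 16 h. Sema4a, a semaphorin, spanned 32.6 to 39.7 TPM with DMSO and 33.1 to 41.0 with the compound at 16 h, and 29.2 to 33.8 against 45.3 to 60.7 at 48 h, with an interaction of 0.64 ± 0.17 (SE; unadjusted p = 0.0022). Lsm5, part of the LSm ring in RNA splicing and decay, had an interaction of 0.93 ± 0.27, Palm3 of 0.66 ± 0.20 and Fah, the last enzyme of tyrosine breakdown, of 0.56 ± 0.16 (SE). Pnck and Ulk3, which encode kinases, had interactions of 0.37 and 0.40, and Mrm2 of 0.48.

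**Figure D3:**
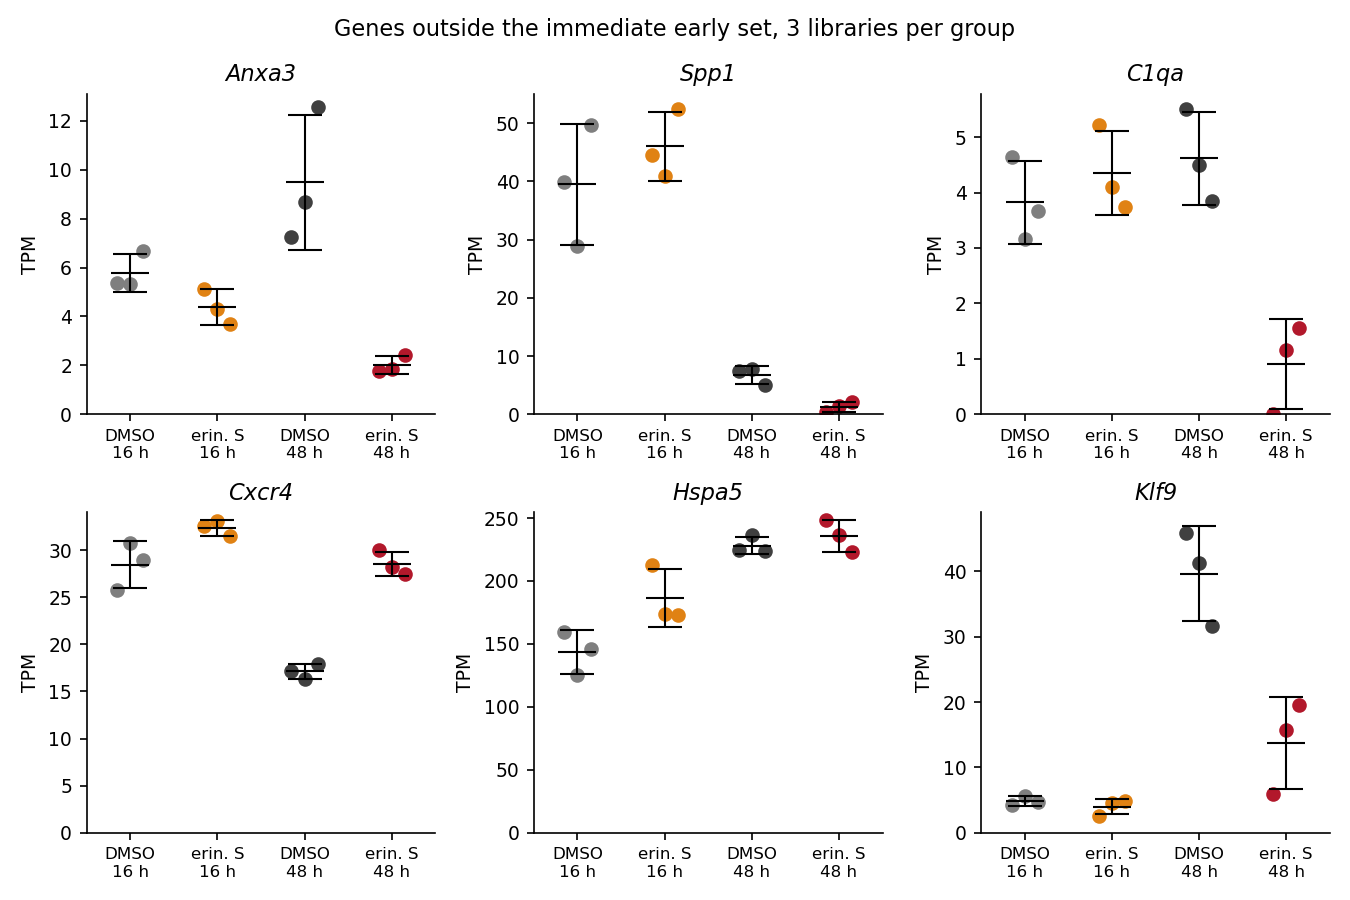
TPM of 6 genes outside the immediate early set in each library of the 4 groups (points), with the mean and the SD of 3 libraries (bars). Anxa3, Spp1, C1qa and Klf9 stand lower with erinacine S at 48 h and Cxcr4 higher, while Hspa5 stands higher at 16 h.

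Chaperones of the endoplasmic reticulum, which fold secreted and membrane proteins, stood further from DMSO at 16 h than at 48 h. All 22 listed genes were tested, and the median effect of erinacine S was 0.22 at 16 h and 0.10 at 48 h on the log2 scale. Treated libraries lay above all DMSO libraries for 13 of the 22 at 16 h (2.62% of all genes) and for 11 at 48 h (10.5%). The median interaction was -0.14, and 19 of 22 were below 0 (50.1% of all genes). An unadjusted p under 0.05 was found for 4, all negative (1.5% of all genes): Sdf2l1, Dnajc3, Hspa5 and Calr. Hspa5 (ENSMUSG00000026864, chromosome 2, 34771970 to 34777547), which encodes the chaperone BiP, was at 160, 125 and 146 TPM in DMSO 16 h, 213, 174 and 173 in erinacine S 16 h, 224, 236 and 224 in DMSO 48 h and 248, 236 and 223 in erinacine S 48 h. Its treated libraries stood apart from DMSO only at 16 h, and the interaction was -0.33 ± 0.14 (SE; limma, unadjusted p = 0.0348). Calr, a calcium-binding chaperone, was at 131% of DMSO at 16 h and 110% at 48 h, with an interaction of -0.25 ± 0.11 that was -0.16 without DMSO 16 h replicate 2, and the co-chaperone Sdf2l1 had one of -0.50 ± 0.19 (SE). At 16 h no member passed after adjustment. Without replicate 1 of erinacine S 48 h the median was -0.17, with 21 of 22 below 0. It was -0.071 without erinacine S 16 h replicate 1 and -0.082 without DMSO 16 h replicate 2, with 20 and 18 below 0. The 23 genes of the integrated stress response, which shares the kinase PERK with this pathway, had a median of 0.03, or -0.10 without erinacine S 48 h replicate 1.

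Few genes of sterol and steroid synthesis, which the title of the series touches on, had an unadjusted p under 0.05 for the interaction. Of 20 enzymes of cholesterol synthesis 19 had an interaction above 0, with a median of 0.18, while 50.1% of all genes were below 0. The treated libraries of 48 h lay above all DMSO libraries for 15 of the 20 (10.5% of all genes). The median depended on single libraries of several groups. It was 0.049 without DMSO 16 h replicate 1, 0.055 without erinacine S 48 h replicate 1 and 0.11 without DMSO 48 h replicate 1, with 5, 8 and 2 of 20 below 0. It was 0.30 without erinacine S 16 h replicate 1, with 0 of 20 below 0. The median over the list of the log2 difference from the DMSO mean was taken in each library. At 16 h replicates 1 to 3 lay at 0.21, -0.11 and -0.09 with DMSO and at 0.35, 0.03 and 0.03 with erinacine S, so that treated libraries stood 0.14, 0.14 and 0.12 above the DMSO library of the same number. At 48 h, where the numbers did not pair the libraries, they lay at -0.09, 0.07 and 0.03 with DMSO and at 0.57, 0.16 and 0.17 with erinacine S. Sc5d, which introduces a late double bond, had the smallest p, with an interaction of 0.34 ± 0.13 (SE; unadjusted p = 0.0268). Of 26 neurosteroid genes 16 were tested, with a median of -0.03 and none at an unadjusted p under 0.05. The first enzyme of that pathway, Cyp11a1, was among the 10 under a mean of 1 TPM. Tspo, a protein of the outer mitochondrial membrane linked to cholesterol import, had an interaction of -0.37 ± 0.28 (SE), or -0.20 without DMSO 16 h replicate 2. The 15 tested genes of fatty acid synthesis had a median of 0.07 (0.019 without DMSO 16 h replicate 1 and 0.19 without erinacine S 16 h replicate 1), with Elovl1, an elongase, at 0.32 ± 0.15 (SE; unadjusted p = 0.0496).

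Among hormone-responsive and clock genes, Klf9 (ENSMUSG00000033863, chromosome 19, 23141226 to 23166911), a target of thyroid hormone and glucocorticoids, stood out by the size of its change over time. It was at 4.28, 5.65 and 4.68 TPM in DMSO 16 h, 2.63, 4.57 and 4.86 in erinacine S 16 h, 45.9, 41.3 and 31.7 in DMSO 48 h and 5.94, 15.7 and 19.6 in erinacine S 48 h. Both conditions were higher at 48 h, with DMSO above all treated libraries. The interaction was -1.34 ± 0.47 (SE; limma, unadjusted p = 0.0146) and -0.87 without erinacine S 48 h replicate 1. Hr, a corepressor of the thyroid hormone receptor, had an interaction of -0.80 ± 0.32 (SE; unadjusted p = 0.0275), and of -0.48 without that library. Over the 12 genes of this list the median was -0.04, with -0.061 to 0.010 when a library was left out. The clock factor Arntl spanned 15.8 to 16.1 TPM with DMSO and 15.0 to 15.9 with the compound at 16 h, and 29.6 to 30.1 against 18.7 to 23.3 at 48 h. Its interaction was -0.41 ± 0.12 (SE; unadjusted p = 0.00471), the only one of 17 tested clock genes at an unadjusted p under 0.05.

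Microglial genes had the most negative median of the lists. Of 16 listed, 10 were tested, with a median interaction of -1.27 and 9 below 0 (50.1% of all genes). Of the 10, 5 had an unadjusted p under 0.05, all negative (1.5% of all genes). The 6 that did not reach a mean of 1 TPM were defining markers of microglia: Cx3cr1, P2ry12, Tmem119, Aif1, Itgam and Trem2. C1qa (ENSMUSG00000036887, chromosome 4, 136895917 to 136898803), a chain of complement C1q, was at 4.64, 3.16 and 3.66 TPM in DMSO 16 h, 5.21, 4.10 and 3.75 in erinacine S 16 h, 5.51, 4.50 and 3.85 in DMSO 48 h and in erinacine S 48 h at the listed lowest value of 0.0001 in replicate 1 and at 1.16 and 1.56 in the others. Its groups overlapped at 16 h and not at 48 h, and its interaction was -1.81 ± 0.41 (SE; limma, unadjusted p = 0.000801). The other C1q chains, C1qb and C1qc, had interactions of -1.21 ± 0.34 and -1.41 ± 0.34 (SE). Without erinacine S 48 h replicate 1 the interactions of C1qa, C1qb and C1qc were -1.40, -0.91 and -1.20.

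Spp1 (ENSMUSG00000029304, chromosome 5, 104435118 to 104441050), which encodes the secreted protein osteopontin, was at 39.9, 29.0 and 49.8 TPM in DMSO 16 h, 44.6, 41.0 and 52.5 in erinacine S 16 h, 7.50, 7.86 and 5.03 in DMSO 48 h and 0.317, 1.44 and 2.09 in erinacine S 48 h. It was lower at 48 h in both conditions, and more so with erinacine S, with an interaction of -2.08 ± 0.40 (SE; unadjusted p = 0.00023). The interaction of Spp1 was -1.72 without erinacine S 48 h replicate 1. Summed over the 10 tested markers, microglial TPM spanned 85.0 to 147 with DMSO and 98.2 to 151 with the compound at 16 h, and 50.6 to 67.8 against 19.5 to 46.3 at 48 h, lowest in replicate 1. Without that library the median interaction of the list was -0.89, with 10 of 10 below 0. The part of these cells in the results for other genes was not tested.

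Markers of other cell types rested more on that library. The median interaction of the 18 genes of dividing cells was -0.46 with all libraries and -0.04 without erinacine S 48 h replicate 1. For the 13 genes of radial glia these values were -0.31 and 0.08 (-0.57 without replicate 3), for 9 astrocyte genes -0.29 and 0.03 (-0.43 without replicate 2), and for 7 genes of endothelium, mural cells and meninges -0.78 and -0.24. Of these 7, 1 reached the 1 TPM minimum only through 1 group, and the other 6 had a median of -0.73 with all libraries. The oligodendrocyte lineage had a median of -0.50, with 10 of 10 tested below 0 (50.1% of all genes), and -0.22 without the library. Mbp, myelin basic protein, was at 6.85, 6.85 and 6.06 TPM in DMSO 16 h, 13.3, 7.66 and 9.85 in erinacine S 16 h, 12.7, 14.0 and 13.4 in DMSO 48 h and 12.2, 9.22 and 10.0 in erinacine S 48 h. It was thus above DMSO at 16 h and below it at 48 h in all libraries, with an interaction of -0.87 ± 0.23 (SE; limma, unadjusted p = 0.0023). Neuronal markers had a median of 0.04, or -0.02 without the library, and those of inhibitory interneurons 0.03, or -0.21.

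**Figure D4:**
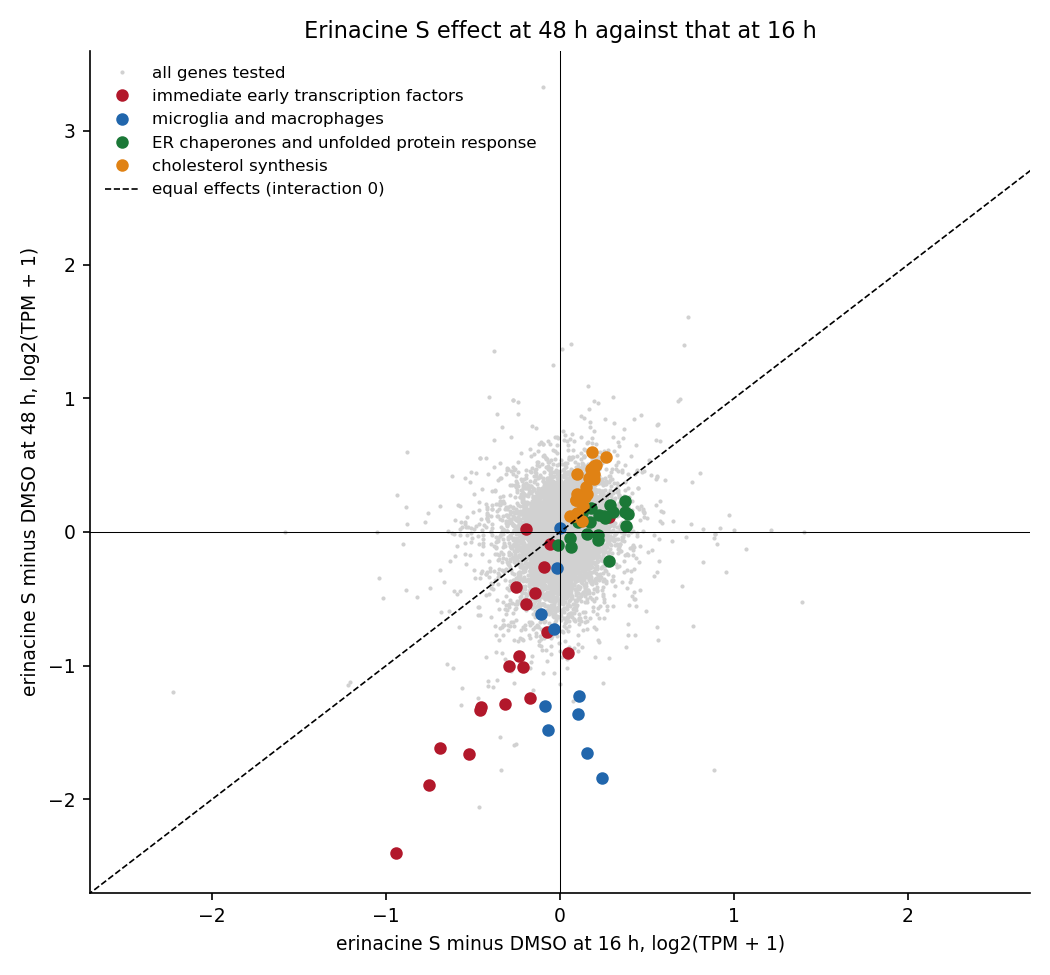
Erinacine S effect at 48 h against the effect at 16 h for each of the 15623 genes, on the log2(TPM + 1) scale, with 4 gene lists in colour and a dashed line where both effects are equal. Immediate early transcription factors lie mostly below the line on the left, microglial genes mostly below it near an effect of 0 at 16 h, and ER chaperones mostly to the right and below the line.

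Outside the lists, Anxa3 (ENSMUSG00000029484, chromosome 5, 96793339 to 96845966), which encodes a calcium-dependent phospholipid-binding protein, had the second smallest p. It was at 5.36, 5.33 and 6.68 TPM in DMSO 16 h, 5.14, 4.30 and 3.67 in erinacine S 16 h, 7.24, 8.68 and 12.6 in DMSO 48 h and 1.77, 1.83 and 2.43 in erinacine S 48 h. Treated libraries lay below DMSO at both times and below the other 9 at 48 h, with an interaction of -1.44 ± 0.26 (SE; limma, unadjusted p = 0.000123, adjusted p = 0.720). The imprinted noncoding RNA Peg13 had little spread between libraries, at 192 to 202 TPM with DMSO and 188 to 206 with the compound at 16 h, and 282 to 290 against 225 to 230 at 48 h, and an interaction of -0.32 ± 0.07 (SE; unadjusted p = 0.00097). It lies inside Trappc9 on the same strand, so reads of the host cannot be told apart from its own. Dtna, a member of the dystrophin complex, had an interaction of -0.63 ± 0.15, the sorting receptor gene Sorcs2 of -0.76 ± 0.19 and the lysosomal membrane gene Laptm4b of -0.50 ± 0.13 (SE).

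The lists for growth and synapses lay near 0. The median was -0.03 for 20 genes tied to axon regeneration, where the 4 with an unadjusted p under 0.05 were Atf3, Jun, Klf9 and Adcyap1, all given above. For 13 neurotrophins and receptors it was -0.12, or -0.24 without erinacine S 48 h replicate 1, with Bdnf and the growth factor gene Igf1 (-0.57) at an unadjusted p under 0.05. For 22 presynaptic genes it was 0.02 and for 24 postsynaptic genes 0.04, or -0.14 and -0.10 without erinacine S 48 h replicate 1. For 22 NRF2 targets it was 0.0054 and for 25 nuclear genes of oxidative phosphorylation -0.07, with 18 of the 25 below 0 (50.1% of all genes). Treated libraries lay below all DMSO libraries for 11 of the 25 at 48 h (8.74% of all genes) and for 0 at 16 h (1.56%). The median was -0.0042 for 18 genes of sterol uptake and export, -0.04 for 12 heat shock genes, 0.0026 for 12 p53 targets and -0.00075 for 13 mitochondrially encoded genes, or 0.17 for the last without erinacine S 48 h replicate 1. For 21 genes of glycolysis and hypoxia it was -0.001, with Hk2 and Eno1, glycolytic enzymes, at negative interactions and an unadjusted p under 0.05, and for 6 genes of blood cells it was 0.18, or -0.13 without that library. With any 1 library left out, the medians of these lists other than the blood genes stayed between the -0.24 of the neurotrophins and the 0.17 of the mitochondrial genes, while that of the blood genes went from -0.49 without erinacine S 16 h replicate 2 to 0.97 without replicate 1. The 22 interferon response genes had a median of -0.26, or -0.23 without erinacine S 48 h replicate 1, with 19 below 0 (50.1% of all genes). Only Rsad2 (-0.45), an antiviral enzyme, was at an unadjusted p under 0.05. Of the 22, 3 reached the 1 TPM minimum only through 1 group. The other 19 had a median of -0.26, with 16 below 0.

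**Figure D5:**
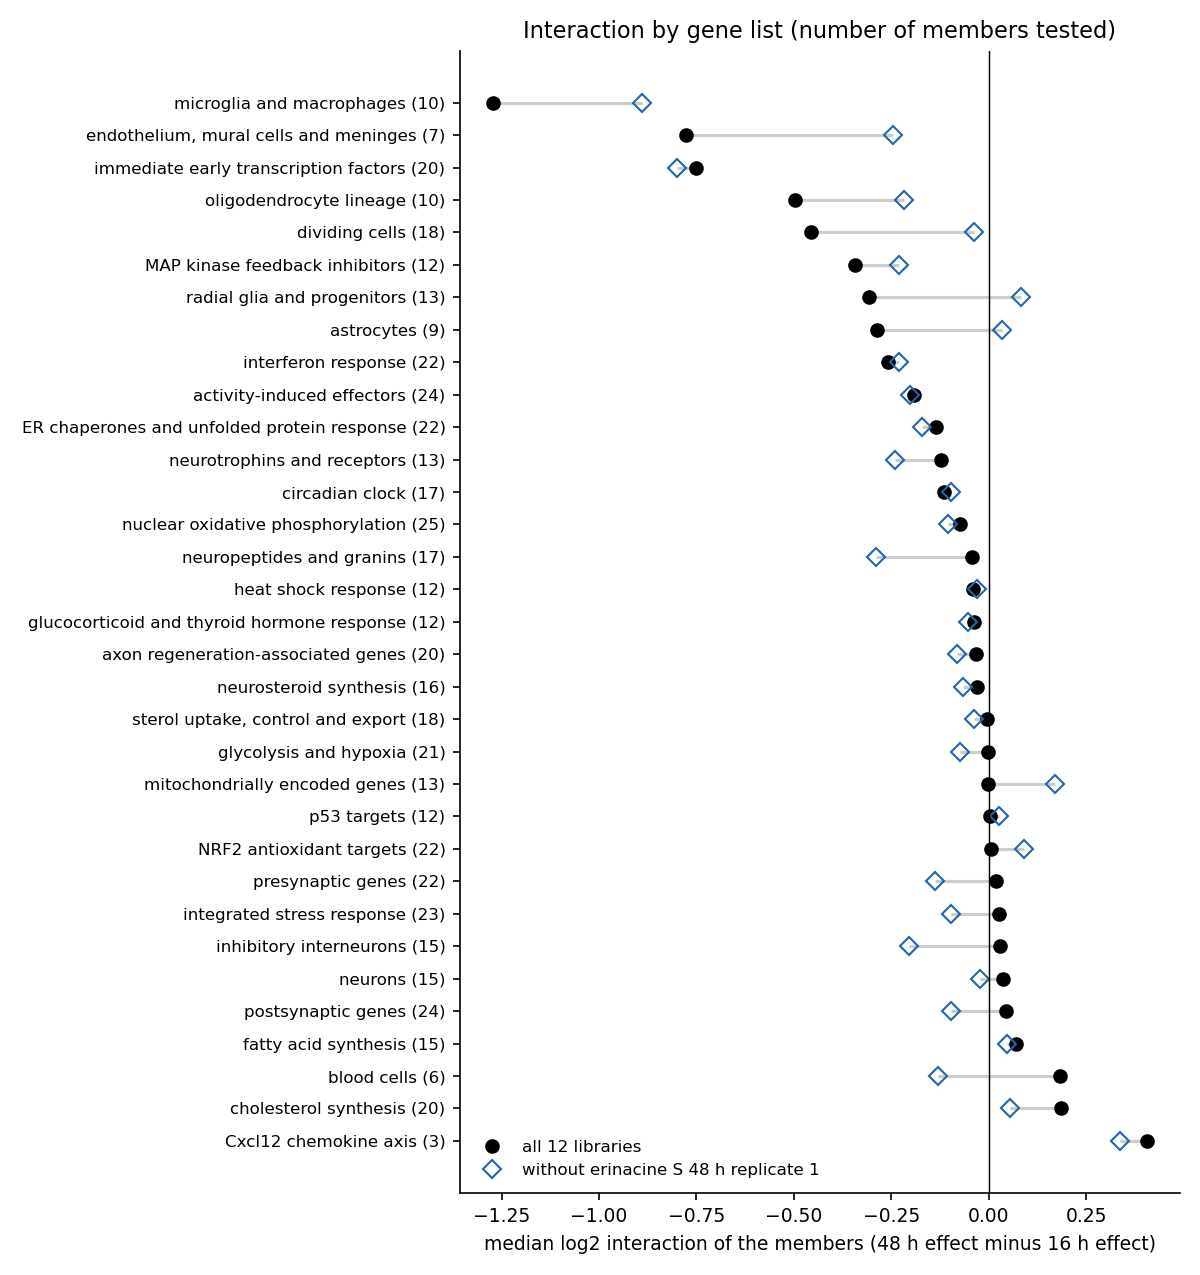
Median log2 interaction of the tested members of each gene list with all 12 libraries (filled circles) and without erinacine S 48 h replicate 1 (open diamonds). The immediate early factors keep a median of -0.80 without the library, while dividing cells, radial glia and astrocytes come close to 0.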

How the data were processed

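Libraries were made from total RNA with a strand-specific kit, per the labels' protocols. Per the submitters' processing notes, StringTie 2.1.3, HISAT2, SAMtools, Trimmomatic 0.36, bcl2fastq 2.20 and FastQC were used with GRCm38.p5. The sources used here give neither the annotation release nor the strand setting. A table of TPM per gene was deposited, with 0.0001 as its lowest value. TPM keep no depth, so precision is given as the spread between libraries.

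A limma 3.58.1 fit (R 4.3.3, eBayes with a trend) was made on log2(TPM + 1), with 1 mean per group, for the 15623 genes with a mean of at least 1 TPM. The threshold was a two-sided p of 0.05 after Benjamini-Hochberg adjustment over these genes. This scale understates the change of low genes. Levels as a percent of DMSO are ratios of group means of TPM. The fit was tested on simulated data. Promoters came from a RefSeq table (GRCm38.p6), matched by symbol, chromosome and strand. The start nearest to the deposited one was taken, with no limit on the distance. The alternatives were other pseudocounts, filters, scalings, replicate blocks, robust eBayes, library weights, the libraries of a single time and leaving out each library.

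The genes, the 33 lists and the tests were chosen with earlier results of these data known. Named genes are the 15 of each direction with the smallest interaction p, up to 4 members per list by p, and members of the activity and Cxcl12 lists, of which part is given and 1 is not reported here. After subtraction of group means, libraries with the same number correlated at 0.480, 0.185 and 0.510 at 16 h, so the numbers were taken to pair the libraries of 16 h. At 48 h the values were -0.022, 0.11 and -0.19, and they were not. Values come from the fit without a block unless a block is named.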

Additional observations from a re-analysis of the deposited data

How the results depend on the processing

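The interaction passed for 0 genes in limma under every alternative but 4: 1 gene with a pseudocount of 0.1, 1 with the replicate block within each time, 1 with the replicate block at 16 h only (an alternative chosen after seeing the data) and 14 with library weights. The weights gave erinacine S 48 h replicate 1 a weight of 0.195, and the 14 held 12 with a negative interaction, among them Fos, Nr4a1, Npas4, Jun, Anxa3, Spp1, Peg13 and Dtna. The effect at 16 h passed for 2 genes with no filter on low values. The effect at 48 h passed for 13 with the replicate block over both times, 12 with only the 48 h libraries and 1599 with weights. Leaving out each library in turn gave 9 (without DMSO 48 h replicate 1, or 3) to 114 (without erinacine S 48 h replicate 1), with 10 without DMSO 48 h replicate 2 or erinacine S 16 h replicate 3, 11 without erinacine S 16 h replicate 2 and 13 without erinacine S 48 h replicate 2 or 3. The time effect passed for 9338 genes in erinacine S with weights. Leaving out a library gave 3110 (without erinacine S 16 h replicate 2) to 5051 in erinacine S and 3401 (without DMSO 48 h replicate 1) to 5978 in DMSO. The median interaction of the immediate early transcription factors was -0.45 with a pseudocount of 5, -0.65 with weights and -0.84 to -0.66 with a library left out. Klf4 turned to -0.041 with weights, and Nr4a2 ranged from -0.39 to 0.057, being 0.020 without erinacine S 48 h replicate 3, with a library left out. Of the 65 named genes recomputed under each alternative, these 2 changed sign. With weights the median of the dividing-cell list turned from -0.46 to 0.019. The cause of these shifts was not tested. The unknown depth limits what can be said of genes near 1 TPM.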

Other observations

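Some rows of the table held libraries far apart within a group, and their interactions are given as values. Gapdh, a glycolytic enzyme with many processed copies in the genome whose reads can be assigned to either, was at 21.7, 157 and 21.3 TPM in DMSO 16 h, 44.8, 192 and 162 in erinacine S 16 h, 134, 125 and 161 in DMSO 48 h and 103, 82.5 and 105 in erinacine S 48 h. Its interaction was -1.91 ± 0.95 (SE; limma, unadjusted p = 0.066). The unnamed gene model Gm16172, chosen after its values were seen, passed the interaction with the replicate block within each time (3.43; limma, adjusted p = 0.000888). It was listed at 0.0001 TPM in all 3 DMSO 48 h libraries and in replicate 3 of both 16 h groups, at 7.08 to 8.83 in the other 16 h libraries and at 7.67, 8.97 and 10.8 in erinacine S 48 h.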
